A study of Mus musculus with 18 samples.

Results

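BPH/2J mice, the Schlager line selected for high blood pressure (BP), were compared with BPN/3J mice, the normotensive line from the same selection, in hypothalamic RNA collected at ‘peak’ BP. The compared groups were 12 of the 18 arrays of the study, chosen by their titles as 6 BPH/2J and 6 BPN/3J mice of the active period. All 12 mice were male, 26 weeks old and kept without treatment, and each was hybridized alone to 1 Affymetrix Mouse Gene 1.0 ST array. The other 6 arrays came from male mice of the inactive period (‘trough’ BP), 3 of each strain, and were used as separate animals beside the ‘peak’ results. They also entered the estimate of spread with which the ‘peak’ difference was tested. Their age is 18 weeks in the labels, although the text on the series puts it at 19. The BPN/3J mice among them carry BPH/2J in their strain label, and here the titles decided the group. Part of the study’s text writes BPN/2J for the control strain. The labels call the tissue hypothalamus, whereas the methods describe removal of the paraventricular nucleus (PVN) and the dorsomedial hypothalamus (DMH). Each strain is a single selected line, so strain and BP cannot be told apart in this design.

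The hypothalamus sets sympathetic outflow, water balance and the release of stress hormones. Neurons of the PVN make vasopressin, oxytocin, corticotropin- and thyrotropin-releasing hormone and project both to the pituitary and to autonomic centres of the brainstem and spinal cord, and neurons of the lateral and dorsomedial hypothalamus link arousal and feeding to the sympathetic system. In whole tissue a strain difference may lie in any cell type, and fewer cells of a type cannot be told apart from less RNA per cell. An array value also depends on binding to the probes, and whether the strains differ in sequence under a probe was not tested.

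Values are log2 signals normalized by the authors with robust multi-array analysis (RMA), so a difference of 1 is a 2-fold difference. A gene was read at its brightest probeset among those with 1 gene symbol, which gave 19937 genes. The difference is BPH/2J minus BPN/3J, positive where BPH/2J mice were higher, with its standard error (SE) from limma. A gene is called where the limma p, corrected for 34760 probesets after Benjamini and Hochberg, was under 0.05. Array medians lay between 6.17 and 6.32 for BPH/2J and between 6.20 and 6.37 for BPN/3J mice. Over all arrays the 10th percentile of the gene values was 4.19 and the 25th was 5.39. Differences of genes that lie this low in 1 or both strains rest on weak signals. BPH/2J mice 8 and 9 and BPN/3J mice 10 and 11 had median correlations with the other ‘peak’ arrays of 0.9855 to 0.9876, against 0.9913 to 0.9937 for the other 8 mice. A further fit, in 4 against 4, left out these higher-numbered mice and also all ‘trough’ arrays, so its spread came from 8 arrays. Where a named gene lost its call in that fit, the adjusted p is given beside it. A loss there cannot be told apart from an effect of fewer arrays. The number of arrays limits the precision. Genes are named by size of difference, by p within a gene list or because the study names them, and list members without a call, neighbours on a chromosome and *AI506816* were chosen after their values were seen. Nothing in the sources says how the mice of a strain were related or housed.

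At ‘peak’ BP 276 genes were called, 1.38% of the 19937 measured. BPH/2J mice were higher in 139 of them (0.697% of all genes) and lower in 137 (0.687%). With the arrays centred on their medians the split was 137 higher and 87 lower. A fit to the 12 ‘peak’ arrays alone called 201 genes, 103 higher and 98 lower. Among the 276 genes the difference was at least 1.5-fold in 125 (0.627% of all genes), 58 higher and 67 lower. It was at least 2-fold in 41, 21 higher and 20 lower. Most of the called differences were modest, with a median size of 0.55 (1.47-fold) and a smallest of 0.25. The median over all genes was 0.01, with a median SE of 0.10. In 219 of the called genes no value of one strain reached the range of the other strain, which held for 339 genes (1.7%) of all those measured. Over all probesets, with or without a gene symbol, 462 (1.33%) were called. Of the called genes 24 have predicted names only, among them *AI506816*, which had the largest difference of all (4.20), and are not described further.

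**Figure D1:**
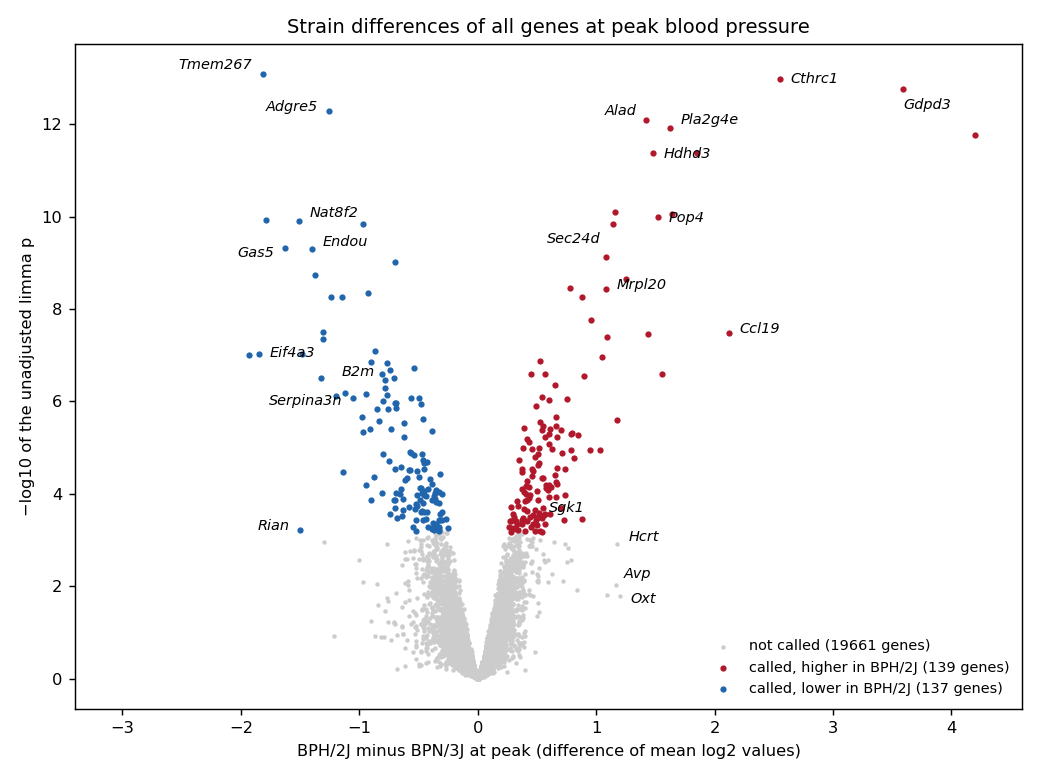
Each point is 1 of 19937 genes, placed by the strain difference at ‘peak’ BP (x axis, BPH/2J minus BPN/3J, log2) and the −log10 of its unadjusted limma p (y axis), with called genes in red (139 higher in BPH/2J) and blue (137 lower). *Gdpd3*, *Cthrc1* and *Ccl19* lie far to the right, *Tmem267*, *Eif4a3* and *Gas5* far to the left, and *Avp*, *Oxt* and *Hcrt* have large differences without being called.

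The genes that were higher in BPH/2J mice by the widest margin included 3 enzymes of lipid metabolism and 2 secreted proteins. *Gdpd3* encodes a glycerophosphodiester phosphodiesterase that releases lysophosphatidic acid from lysophospholipids. Its values ran from 7.85 to 8.76 (median 8.64) in BPH/2J and from 4.49 to 5.06 (median 4.87) in BPN/3J mice, a difference of 3.59 (SE 0.17, 12-fold, limma adjusted p = 1.2e-09). No BPN/3J mouse came within the BPH/2J range. *Pla2g4e*, a cytosolic phospholipase A2 whose product makes precursors of N-acylethanolamines, ran from 7.79 to 8.19 (median 8.15) against 6.29 to 6.64 (median 6.47), a difference of 1.62 (SE 0.09, limma adjusted p = 4.13e-09). *Hpgd*, the dehydrogenase that inactivates prostaglandins, ran from 7.21 to 7.67 (median 7.47) against 5.93 to 6.38 (median 6.30) and differed by 1.25 (SE 0.11, limma adjusted p = 1.9e-06). The strains did not overlap for any of these 3 enzymes, and the ‘trough’ mice gave differences of 3.08, 1.87 and 1.41.

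Among secreted proteins, *Cthrc1*, which encodes a collagen triple helix repeat protein that acts in Wnt signalling, ran from 8.88 to 9.18 (median 9.04) in BPH/2J and from 5.98 to 6.87 (median 6.52) in BPN/3J mice. The difference was 2.55 (SE 0.12, 5.84-fold, limma adjusted p = 9.2e-10), and 2.55 in the ‘trough’ mice. *Ccl19*, a chemokine that draws T cells and dendritic cells through the receptor CCR7, ran from 10.18 to 10.79 (median 10.33) against 7.38 to 8.74 (median 8.51), a difference of 2.12 (SE 0.22, limma adjusted p = 1.86e-05). Mice of the strains were again fully apart. *Ccl19* is one of the genes the study selected on these arrays, and near-identical copies of it lie in the mouse genome. Of its 4 probesets another had a difference of 2.18 (adjusted p = 1.37e-07) and the others 0.07 and 0.75 (0.959 and 0.621), so the value depends on the probeset and the copy it reads cannot be told.

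Enzymes and carriers of general cell biology followed. *Alad*, which joins aminolevulinate into porphobilinogen in haem synthesis, ran from 10.07 to 10.32 (median 10.24) in BPH/2J and from 8.62 to 8.95 (median 8.81) in BPN/3J mice, a difference of 1.42 (SE 0.08, limma adjusted p = 3.52e-09). Its neighbour on chromosome 4, *Hdhd3*, a hydrolase of the haloacid dehalogenase family, ran from 8.0 to 8.20 (median 8.17) against 6.35 to 6.91 (median 6.65), a difference of 1.48 (SE 0.09, limma adjusted p = 1.12e-08). *Pop4*, a protein subunit of ribonuclease P and MRP, ran from 8.66 to 9.18 (median 9.05) against 7.14 to 7.69 (median 7.44), a difference of 1.52 (SE 0.11, limma adjusted p = 1.52e-07). All 3 genes separated the strains completely, with differences in the ‘trough’ mice of 1.48, 1.49 and 1.70. *Sec24d*, a cargo adaptor of the COPII vesicle coat, differed by 1.14 (SE 0.08, limma adjusted p = 1.9e-07), with BPH/2J mice from 7.65 to 7.86 (median 7.78) and BPN/3J mice from 6.51 to 6.80 (median 6.61). Another 3 of the 12 largest positive differences belong to genes best known from germ cells. *Slc25a31*, a mitochondrial ADP/ATP carrier, ran from 5.46 to 6.08 (median 5.87) against 3.94 to 4.58 (median 4.21) (difference 1.64, limma adjusted p = 1.42e-07). *Sycp3*, a structural protein of the synaptonemal complex, ran from 5.76 to 7.07 (median 6.80) against 4.83 to 5.58 (median 5.09) (difference 1.56, limma adjusted p = 9.54e-05). *Ddx4*, the vasa RNA helicase, ran from 5.34 to 6.36 (median 6.04) against 4.26 to 4.65 (median 4.51) (difference 1.44, limma adjusted p = 1.91e-05). None of these 3 genes showed overlap between the strains.

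The genes that were lower in BPH/2J mice by the widest margin included regulators of RNA. *Eif4a3*, the RNA helicase at the core of the exon junction complex, ran from 5.73 to 7.07 (median 6.81) in BPH/2J and from 7.73 to 8.98 (median 8.56) in BPN/3J mice, a difference of -1.85 (SE 0.21, limma adjusted p = 4.37e-05). *Gas5*, a non-coding transcript that hosts small nucleolar RNAs, ran from 9.31 to 10.18 (median 9.98) against 11.32 to 11.73 (median 11.44), a difference of -1.63 (SE 0.13, limma adjusted p = 5e-07). Both left the strains apart. The other 3 probesets of *Gas5* differed by -1.08, -0.78 and -0.56 (adjusted p = 0.0477, 0.295 and 0.384). *Endou*, an endoribonuclease, ran from 5.91 to 6.45 (median 6.16) against 7.32 to 7.85 (median 7.61), a difference of -1.40 (SE 0.11, limma adjusted p = 5.22e-07). *Rian*, a non-coding RNA of the imprinted *Dlk1*-*Meg3* region, ran from 5.41 to 6.56 (median 6.12) against 6.41 to 9.45 (median 7.33), a difference of -1.50 (SE 0.36, limma adjusted p = 0.0477). Here the groups overlapped, BPN/3J mouse 11 lay at 9.45, and the call ended in 9 of the 12 fits that left out 1 mouse (adjusted p up to 0.115).

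*Tmem267*, a transmembrane protein of unsettled function, had the smallest adjusted p of all genes together with *Cthrc1*. It ran from 7.90 to 8.23 (median 8.05) in BPH/2J and from 9.54 to 10.02 (median 9.90) in BPN/3J mice, a difference of -1.81 (SE 0.08, 3.5-fold, limma adjusted p = 9.2e-10). *Adgre5*, the leukocyte adhesion receptor CD97, ran from 5.84 to 6.10 (median 6.05) against 7.19 to 7.39 (median 7.26), a difference of -1.26 (SE 0.06, limma adjusted p = 2.54e-09). These were among the tightest groups, and neither overlapped. *Phkg1*, a catalytic subunit of phosphorylase kinase in glycogen breakdown, ran from 5.95 to 6.41 (median 6.34) against 7.26 to 8.0 (median 7.73) (difference -1.37, limma adjusted p = 1.61e-06). *Bfsp2*, an intermediate filament protein of the lens, ran from 5.17 to 5.60 (median 5.38) against 6.21 to 6.87 (median 6.63) (difference -1.24, limma adjusted p = 3.75e-06). Both genes separated the strains without overlap. Of the remaining 4 of the 12 lowest, *Nat8f2*, an N-acetyltransferase gene, ran from 4.07 to 4.54 (median 4.38) against 5.51 to 6.20 (median 5.88) (difference -1.51), and *Vmn2r1*, a vomeronasal receptor gene, from 4.11 to 4.52 (median 4.35) against 5.25 to 6.29 (median 5.61) (difference -1.32). *Zfp982* and *Pcdhb6* are given with their families. *Nat8f2*, *Vmn2r1*, *Zfp982* and *Pcdhb6* belong to families of similar genes, whose copies a probeset may share.

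**Figure D2:**
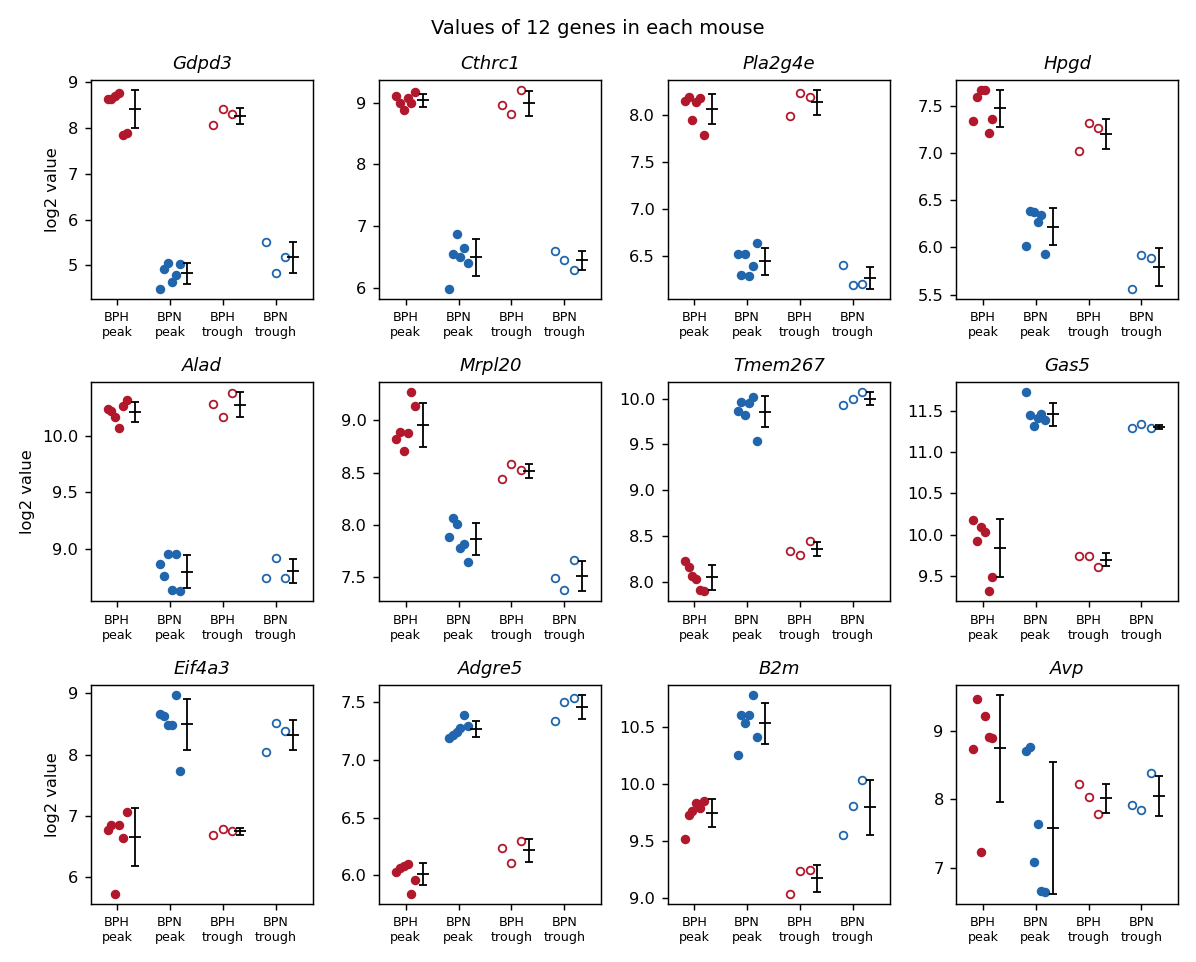
The log2 value (y axis, a separate scale per panel) of 12 genes is drawn for every mouse, BPH/2J in red and BPN/3J in blue, filled for ‘peak’ and open for ‘trough’ BP, with the group mean ± SD as a bar at the right of each group. The ‘peak’ mice of the strains lie apart in all panels but that of *Avp*. There BPH/2J mouse 6 (7.23) lies among the BPN/3J mice, and BPH/2J mouse 4 (8.74) lies just below BPN/3J mouse 6 (8.76).

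Peptides of the PVN and supraoptic nucleus had mostly positive differences, but 1 of the 13 measured was called higher in BPH/2J mice (7.69%, against 1.38% of all genes). Of the 13, 11 differences were positive, and their median was 0.20 against 0.01 over all genes. *Avp*, the vasopressin precursor, ran from 7.23 to 9.47 (median 8.90) in BPH/2J and from 6.64 to 8.76 (median 7.36) in BPN/3J mice. Its difference of 1.17 (SE 0.40, 95% interval 0.33 to 2.01) had a limma adjusted p of 0.246, and 0.0541 without BPH/2J mouse 6. *Oxt*, the oxytocin precursor, ran from 8.39 to 10.64 (median 10.40) against 7.41 to 10.25 (median 8.92), a difference of 1.20 (SE 0.45, limma adjusted p = 0.313). *Trh*, the precursor of thyrotropin-releasing hormone, ran from 8.56 to 9.75 (median 9.31) against 6.53 to 9.43 (median 8.18), a difference of 1.09 (SE 0.41, limma adjusted p = 0.312). For all 3 genes the strains overlapped, and the ‘trough’ differences were -0.04, -0.55 and 0.02. *Gal*, the precursor of galanin, was the called member, with values from 7.19 to 7.89 (median 7.61) against 6.02 to 7.36 (median 6.68) and a difference of 0.88 (SE 0.20, limma adjusted p = 0.0322). Its groups overlapped too, and the call ended in 9 of the 12 fits that left out 1 mouse (adjusted p up to 0.087). *Crh*, the precursor of corticotropin-releasing hormone, differed by 0.15 (SE 0.22) and *Sst*, the somatostatin precursor, by 0.27 (SE 0.22), neither called.

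Of 25 peptide genes of other hypothalamic nuclei 0 were called, and 5 had an unadjusted limma p under 0.05. *Hcrt*, the orexin precursor of the lateral hypothalamus, came closest, with values from 9.22 to 11.04 (median 10.22) in BPH/2J and from 7.71 to 9.36 (median 9.21) in BPN/3J mice. The difference was 1.18 (SE 0.30, limma adjusted p = 0.0758), and the lowest BPH/2J mouse lay below the highest BPN/3J mouse. With p-values adjusted over the 1-symbol probesets it passed (adjusted p = 0.0403), as it did without BPH/2J mouse 6 (0.0244). By 2-sided exact permutation of the 12 mice the unadjusted p was 0.0411 for *Avp*, 0.0606 for *Oxt*, 0.0693 for *Trh* and 0.00866 for *Hcrt*, where 0.00216 is the smallest p that 6 against 6 mice can give. Without the higher-numbered mice, in 4 against 4, the differences were smaller, 0.62 for *Avp*, 0.65 for *Oxt*, 0.48 for *Trh*, 0.58 for *Hcrt* and 0.58 for *Gal* (limma adjusted p = 0.389 for *Gal*, whose call ended, and 0.438 to 0.832 for the others). The study selected *Avp*, *Oxt*, *Trh* and *Hcrt* on these arrays, so their direction is not independent evidence. Its selection used a fold difference between ‘peak’ and ‘trough’ BP adjusted for BPN/3J mice, which is not the ‘peak’ strain difference given here. The study also measured these genes by qPCR. By ANOVA of that qPCR it reports *Hcrt* and *Ccl19* as higher in active BPH/2J than in active BPN/3J mice.

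Receptors and enzymes of the classic pressor systems gave no call. Of 13 genes of the renin-angiotensin and mineralocorticoid systems 0 were called (differences -0.36 to 0.12), and 1 had an unadjusted limma p under 0.05. Among 21 genes of catecholamine synthesis and signalling 0 were called and 2 had an unadjusted p under 0.05, and among 51 neuropeptide receptors 0 and 1. The GABA list, of interest because GABA is the main inhibitory transmitter onto PVN neurons, held 22 genes, of which 18 were positive (median 0.12) and 0 were called, with 0 at an unadjusted limma p under 0.05. Of 31 genes for nitric oxide and vasoactive peptides 1 was called (3.23%, against 1.38% of all genes), *Edn3*, which encodes endothelin 3. It ran from 6.85 to 7.02 (median 6.95) against 6.16 to 6.69 (median 6.45), a difference of 0.51 (SE 0.08, limma adjusted p = 0.00247), without overlap, and the call ended in 4 against 4 mice (difference 0.50, adjusted p = 0.107). The other 2 genes that the study names overlapped between the strains at ‘peak’ BP. *Slc8a1*, a sodium-calcium exchanger, had a difference of -0.02 (SE 0.10) and *Aldh1a2*, a retinoic acid synthase strong in the meninges, -0.47 (SE 0.33), with limma adjusted p of 0.982 and 0.718.

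Glucocorticoids leave the adrenal with a daily rhythm and under stress, bind the receptor NR3C1 and raise a set of genes that is much the same in many tissues. All 16 measured genes of the glucocorticoid-induced list were at or above 0 in BPH/2J against BPN/3J mice at ‘peak’ BP, the lowest being *Errfi1* (0.00). However, 1 of the 16 was called (6.25%, against 1.38% of all genes). The median difference of the list was 0.20, against 0.01 over all genes. *Sgk1*, a kinase that retains sodium channels at the cell surface, was the called member. It ran from 9.24 to 9.54 (median 9.38) in BPH/2J and from 8.53 to 8.99 (median 8.89) in BPN/3J mice, a difference of 0.54 (SE 0.12, limma adjusted p = 0.0307), with the strains apart. The call ended in 8 of the 12 fits that left out 1 mouse (adjusted p up to 0.0724). *Zbtb16*, the transcription factor PLZF, ran from 7.95 to 8.71 (median 8.49) against 7.55 to 8.12 (median 7.95), a difference of 0.51 (SE 0.17, limma adjusted p = 0.229). *Plin4*, a lipid droplet protein, differed by 0.45 (SE 0.13, adjusted p = 0.132 from limma), *Fkbp5*, a co-chaperone that restrains the receptor, by 0.37 (SE 0.11, 0.13) and *Tsc22d3*, the leucine zipper GILZ, by 0.29 (SE 0.10, 0.235). These 4 genes overlapped between the strains. *Nr3c1*, the receptor itself, differed by 0.06 (SE 0.08). The median over the list, taken in each mouse after centring each gene on the 12 mice, ran from 0.05 to 0.16 in BPH/2J and from -0.19 to -0.08 in BPN/3J mice. In the ‘trough’ mice the same medians ran from -0.02 to 0.12 and from -0.26 to 0.02, which overlap, and 12 of the 16 differences were positive. *Zbtb16* was selected by the study on these arrays.

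Of 22 clock genes 1 was called (4.55%, against 1.38% of all genes). It was *Dbp*, an output transcription factor of the clock, with values from 9.79 to 10.07 (median 9.99) in BPH/2J and from 9.33 to 9.66 (median 9.55) in BPN/3J mice. Its difference was 0.42 (SE 0.08, limma adjusted p = 0.0149) and the strains did not overlap. *Ciart*, a repressor of the clock, also left the strains apart, from 8.82 to 9.21 (median 8.98) against 7.83 to 8.80 (median 8.47), with a difference of 0.55 (SE 0.15, limma adjusted p = 0.103). The core genes *Per1* (0.22, SE 0.10), *Per2* (0.16, SE 0.11), *Arntl* (-0.18, SE 0.12) and *Clock* (-0.09, SE 0.09) were not called, and the median over the list was 0.05. Of 23 immediate early genes, which follow neuronal activity, 0 were called, 2 had an unadjusted limma p under 0.05 and the median was -0.08.

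The sequences before the start sites of *Sgk1*, *Ciart* and *Per1* are shown because these genes are classic targets of the glucocorticoid receptor or of the clock. They are RefSeq sequences of build GRCm38.p6, which is that of C57BL/6J mice and not of BPH/2J or BPN/3J, and give the 250 bases before the start, 5′ to 3′ on the gene’s strand. Capitals mark CACGTG, the E-box bound by CLOCK and BMAL1, which reads the same on both strands, and AGAACA or its reverse complement TGTTCT, a half-site of the glucocorticoid receptor. The first 2 matches of *Sgk1* share letters. *Sgk1* has 6 listed start sites, and the one with the most matches was chosen after the letters had been searched, at chr10:21993640-21993889 (+ strand). *Ciart* lies at chr3:95882229-95882478 (− strand), and the first of 2 starts of *Per1* at chr11:69098699-69098948 (+ strand). It is the start of *Per1* with a match, and the window of the other start holds neither set of letters.
Sgk1: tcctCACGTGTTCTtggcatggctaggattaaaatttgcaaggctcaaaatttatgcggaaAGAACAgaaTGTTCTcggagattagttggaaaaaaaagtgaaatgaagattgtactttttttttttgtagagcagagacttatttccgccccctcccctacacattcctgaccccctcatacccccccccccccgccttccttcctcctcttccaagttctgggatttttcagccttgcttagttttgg
Ciart: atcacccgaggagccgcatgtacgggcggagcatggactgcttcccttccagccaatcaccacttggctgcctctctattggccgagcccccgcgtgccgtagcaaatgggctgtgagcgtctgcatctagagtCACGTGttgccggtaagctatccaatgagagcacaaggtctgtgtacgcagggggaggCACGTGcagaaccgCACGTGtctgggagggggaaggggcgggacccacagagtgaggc
Per1: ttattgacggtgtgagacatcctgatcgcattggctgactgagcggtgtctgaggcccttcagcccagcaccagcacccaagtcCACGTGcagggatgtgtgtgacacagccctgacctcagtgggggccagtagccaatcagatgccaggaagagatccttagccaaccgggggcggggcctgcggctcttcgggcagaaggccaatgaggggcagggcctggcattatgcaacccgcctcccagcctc

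The letters CACGTG occur in 6 of 28 such windows of the clock list (21.4%, 5 of 19 genes), in 6.02% of all 32851 windows and in 6.37% of the 267 windows of called genes. The half-site occurs in 5 of 21 windows of the glucocorticoid list (23.8%, 3 of 13 genes), in 16.1% of all windows and in 14.2% of those of called genes. These are matches of letters in the reference strain.

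**Figure D3:**
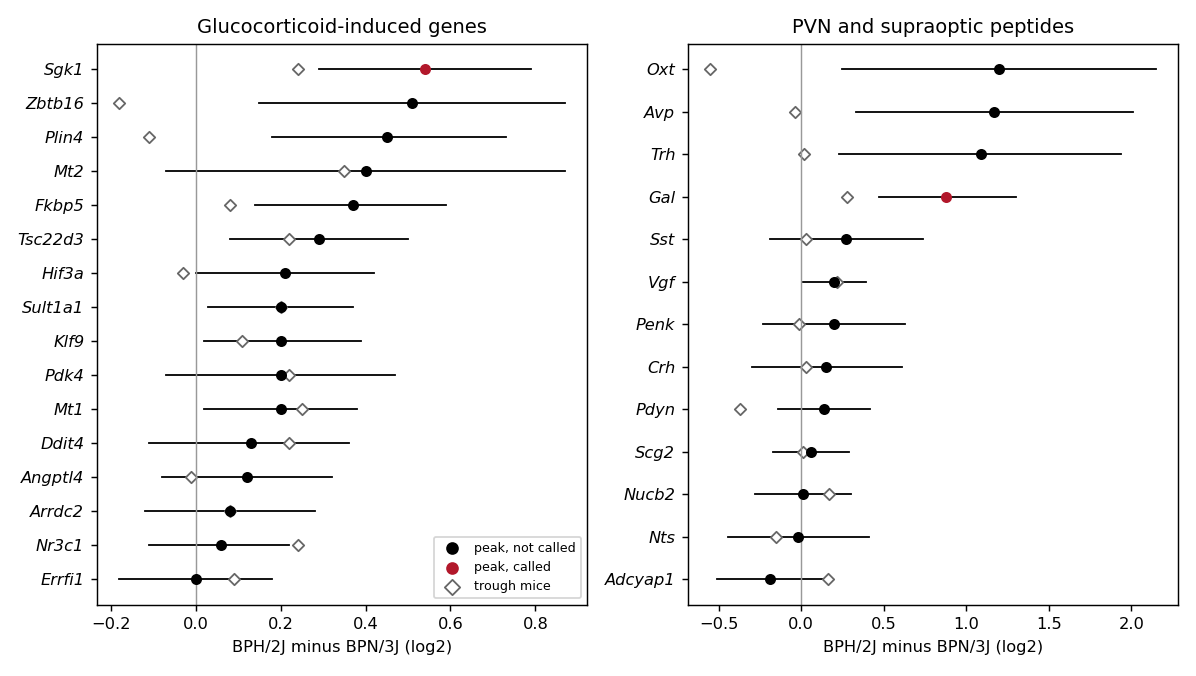
The strain difference (x axis, BPH/2J minus BPN/3J, log2) of each glucocorticoid-induced gene (left) and each PVN and supraoptic peptide gene (right) is drawn at ‘peak’ BP as a dot with its 95% interval from limma, red where called, and in the ‘trough’ mice as an open diamond. All dots at the left lie at or right of 0, with *Sgk1* (0.54) the only one called, and at the right *Oxt*, *Avp* and *Trh* have the widest intervals.

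Clustered protocadherins are adhesion proteins that give each neuron a surface identity and are chosen in part by chance from tandem genes on chromosome 18. All 22 measured members were of the beta cluster. Of these 6 were called lower and 1 higher in BPH/2J mice (31.8%, against 1.38% of all genes), 19 were negative and the median was -0.38. *Pcdhb6* ran from 6.33 to 6.60 (median 6.38) in BPH/2J and from 7.22 to 8.15 (median 7.77) in BPN/3J mice, a difference of -1.31 (SE 0.14, 2.47-fold, limma adjusted p = 2.26e-05). *Pcdhb2* ran from 7.13 to 7.69 (median 7.41) against 7.78 to 8.22 (median 7.97) (difference -0.60, limma adjusted p = 0.00651) and *Pcdhb21* from 6.14 to 6.41 (median 6.18) against 6.62 to 7.09 (median 6.76) (difference -0.57, limma adjusted p = 0.0047). These 3 genes did not overlap between the strains, and the call of *Pcdhb2* ended in 4 against 4 mice (adjusted p = 0.0574). *Pcdhb8* (-0.63), *Pcdhb3* (-0.53) and *Pcdhb4* (-0.35) were also called lower, and *Pcdhb9* was called higher, from 6.01 to 6.92 (median 6.61) against 5.58 to 6.03 (median 5.72), a difference of 0.73 (SE 0.17, limma adjusted p = 0.033) with overlap. In the ‘trough’ mice *Pcdhb2* to *Pcdhb8* were lower in BPH/2J mice as at ‘peak’ BP (*Pcdhb6* -1.14, *Pcdhb2* -0.51), whereas *Pcdhb21* was at 0.18 and *Pcdhb19* at 0.46 against -0.35 at ‘peak’ BP, and the list’s median was 0.12. These genes resemble each other closely, are neighbours and are not independent, and probes may read more than 1 of them.

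**Figure D4:**
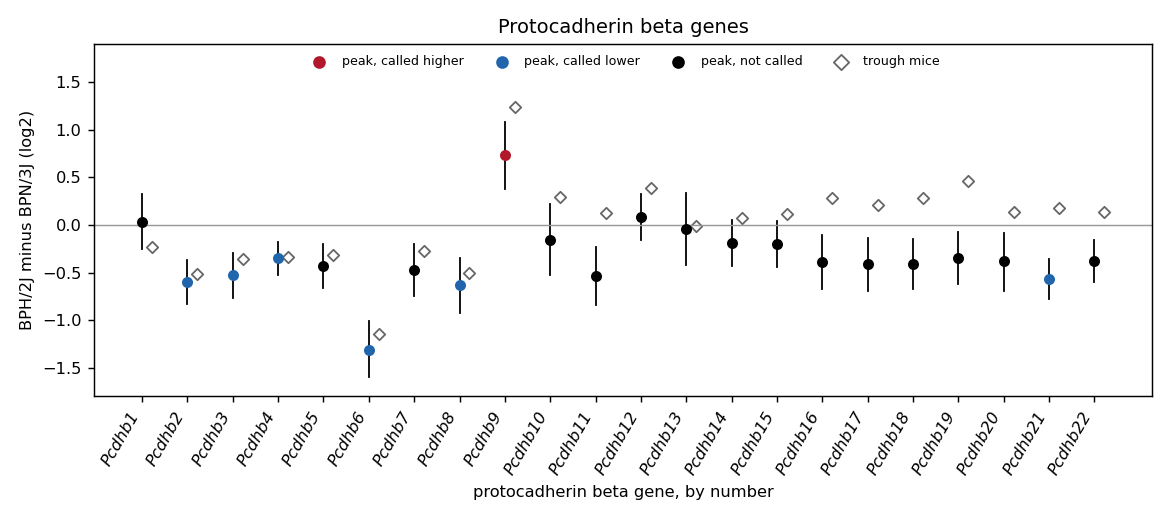
The strain difference (y axis, BPH/2J minus BPN/3J, log2) of 22 protocadherin beta genes in order of their numbers (x axis) is drawn at ‘peak’ BP as a dot with its 95% interval from limma, blue or red where called, and in the ‘trough’ mice as an open diamond. From *Pcdhb2* to *Pcdhb8* dots and diamonds both lie below 0, *Pcdhb9* lies above it in both, and from *Pcdhb16* on the dots lie below 0 and the diamonds above it.

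Immune genes moved singly and in both directions, with 0 to 3 called members in each list. Called shares were 2.44% of the MHC list and 2.41% of the chemokine and cytokine list, against 1.38% of all genes. The interferon-induced list had 5% and the natural killer and lectin receptor list 3.64%. *B2m*, the light chain of MHC class I molecules, was lower in BPH/2J mice and the called member of 41 MHC and antigen presentation genes. It ran from 9.52 to 9.85 (median 9.78) against 10.25 to 10.78 (median 10.56), a difference of -0.78 (SE 0.10, limma adjusted p = 0.000119), without overlap. Of 19 complement genes 3 were called (15.8%, against 1.38% of all genes), and these 3 did not overlap between the strains (15.8%, against 1.7% of all genes). *C1qc*, a chain of C1q, ran from 7.31 to 7.57 (median 7.44) against 7.73 to 8.24 (median 7.97) (difference -0.54, limma adjusted p = 0.00257). Its partner chains *C1qa* (0.09, SE 0.10) and *C1qb* (-0.32, SE 0.18) were not called. *C4a* ran from 5.67 to 6.14 (median 6.03) against 6.33 to 6.75 (median 6.44) (difference -0.49, limma adjusted p = 0.00992), and its near-identical copy *C4b*, which may share probes with it, was at -0.21 (SE 0.10). *C2*, a protease of the classical pathway, was higher, from 5.78 to 6.08 (median 5.87) against 5.38 to 5.75 (median 5.48) (difference 0.39, limma adjusted p = 0.0112), and the calls of *C4a* and *C2* ended in 4 against 4 mice (adjusted p = 0.117 and 0.183). Among 83 chemokine and cytokine genes *Ccl28*, a mucosal chemokine that lies next to *Tmem267*, was called lower, from 4.88 to 5.27 (median 4.97) against 5.64 to 5.90 (median 5.76) (difference -0.74, limma adjusted p = 8.29e-05), beside *Ccl19*. Of 40 interferon-induced genes *Ifit3* (0.50, limma adjusted p = 0.0307) and *Oasl2* (0.32, 0.0463) were called higher, both with overlap, and lost the call in 6 and 10 of the 12 fits without 1 mouse (adjusted p up to 0.0765 and 0.111) and in 4 against 4 mice (0.0741 and 0.33). Of 55 natural killer and lectin receptor genes *Klra2* was called higher (0.54, limma adjusted p = 0.00651) and *Clec5a* lower (-0.74, 0.0265), the latter lost in 7 of the 12 fits (adjusted p up to 0.0731) and *Klra2* in 4 against 4 mice (0.0941). *Serpina3n*, a serine protease inhibitor of reactive astrocytes, was lower in BPH/2J mice, from 8.44 to 9.10 (median 8.88) against 9.33 to 10.21 (median 9.96), a difference of -1.05 (SE 0.14, limma adjusted p = 0.000249), without overlap. It was the only call among 14 reactive astrocyte markers (7.14%, against 1.38% of all genes). Differences in that list lay above 0 for 2 genes and below 0 for 12. The middle value was -0.10 at ‘peak’ BP and 0.01 in the ‘trough’ mice. *Gfap*, the astrocyte filament, was at -0.69 (SE 0.25) and not called. It was the lowest of 10 general astrocyte markers, of which 6 lay above 0 and 4 below (median 0.04).

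Genes of mitochondria and redox chemistry differed one by one as well. Of 74 mitochondrial ribosomal proteins 5 were called, all higher in BPH/2J mice (6.76%, against 0.697% of all genes called higher), with a median over the list of 0.04. *Mrpl20* ran from 8.71 to 9.27 (median 8.88) in BPH/2J and from 7.65 to 8.07 (median 7.85) in BPN/3J mice, a difference of 1.08 (SE 0.10, limma adjusted p = 2.88e-06). *Mrpl9* ran from 8.45 to 8.72 (median 8.65) against 8.01 to 8.30 (median 8.14) (difference 0.46, limma adjusted p = 0.00203), and *Mrpl15* from 7.84 to 7.88 (median 7.85) against 7.36 to 7.67 (median 7.45) (difference 0.37, limma adjusted p = 0.00464). None of these 3 overlapped, and *Mrpl48* (0.37) and *Mrps26* (0.44) were the others. Of 79 subunits of oxidative phosphorylation 1 was called, *Ndufa3* of complex I, with overlap and a difference of -0.33 (SE 0.08, limma adjusted p = 0.0457), a call that ended in 11 of the 12 fits without 1 mouse (adjusted p up to 0.117) and in 4 against 4 mice (0.112). Of 53 glutathione and antioxidant genes *Mgst3*, a microsomal glutathione transferase, was higher, from 9.76 to 10.02 (median 9.96) against 9.21 to 9.55 (median 9.36) (difference 0.55, limma adjusted p = 0.000789), as was *Gsto2* (0.41, limma adjusted p = 0.00891), both without overlap. *Gstm6*, one of several similar mu class genes, was lower with overlap (-0.81, limma adjusted p = 0.0119). In 4 against 4 mice the calls of *Mgst3* and *Gstm6* ended (adjusted p = 0.0698 and 0.128). *Cyp2j13*, of a family of similar epoxygenases, was the called member of 82 cytochrome P450 genes, from 4.19 to 4.69 (median 4.51) against 4.86 to 5.68 (median 5.27) (difference -0.83, limma adjusted p = 0.000627), without overlap. The proteasome subunit *Psmd6* was higher (0.57, SE 0.07, limma adjusted p = 9.54e-05) and the co-chaperone *Dnajc28* lower (-0.85, SE 0.12, limma adjusted p = 0.000393), the called members of 39 and 74 genes, with the strains apart for both. Called shares were 5.66% of the glutathione and antioxidant list and 2.56% of the proteasome list, against 1.38% of all genes. The chaperone, oxidative phosphorylation and cytochrome P450 lists had 1.35%, 1.27% and 1.22%.

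Of 87 potassium channel genes 4 were called (4.6%, against 1.38% of all genes). *Kcnn2*, the SK2 channel that shapes the afterhyperpolarization of neurons, was higher, from 8.48 to 8.73 (median 8.69) against 8.13 to 8.39 (median 8.19), a difference of 0.44 (SE 0.09, limma adjusted p = 0.0125). *Kcnip3*, a calcium-binding partner of A-type channels, was lower, from 8.62 to 9.07 (median 9.01) against 9.18 to 9.60 (median 9.40) (difference -0.45, limma adjusted p = 0.0107), and so was the leak channel *Kcnk1*, from 10.11 to 10.34 (median 10.22) against 10.43 to 10.63 (median 10.54) (difference -0.30, limma adjusted p = 0.0121). No overlap was seen in these 3 genes, and *Kcnab2*, an auxiliary subunit, was called lower at -0.30. The call of *Kcnk1* ended in 4 against 4 mice (adjusted p = 0.084). Of 35 sodium and calcium channel genes, 26 pumps and exchangers, 29 glutamate genes and 21 acetylcholine receptor genes 0 were called by limma, and 0, 4, 2 and 2 had an unadjusted p under 0.05. Of 341 zinc finger genes named Zfp 3 were called higher and 7 lower (2.93%, against 1.38% of all genes). *Zfp982*, of a cluster of similar genes on chromosome 4, ran from 3.77 to 4.07 (median 3.96) against 4.80 to 5.72 (median 5.29) (difference -1.31, limma adjusted p = 1.76e-05). *Zfp661* was the highest of them, from 6.48 to 6.83 (median 6.71) against 5.35 to 6.09 (median 5.57) (difference 1.05, limma adjusted p = 4.85e-05), and *Zfp14* ran from 6.95 to 7.07 (median 7.02) against 7.32 to 7.62 (median 7.50) (difference -0.48, limma adjusted p = 0.000323). These zinc finger genes left the strains apart. Of 1015 olfactory receptors *Olfr288* was called lower with overlap (-0.42, limma adjusted p = 0.0422), a call lost in 9 of the 12 fits without 1 mouse (adjusted p up to 0.106) and in 4 against 4 mice (0.154). The small nucleolar RNAs had 44 negative members of 51 and a median of -0.21, which was -0.07 without BPN/3J mouse 11 and -0.01 in 4 against 4 mice. Their called member *Snord73a* (-0.58, limma adjusted p = 0.0199) lies within *Rps3a1*, a ribosomal protein gene with many processed copies that was lower too, from 9.65 to 10.85 (median 10.34) against 11.12 to 11.78 (median 11.45) (difference -1.14, limma adjusted p = 0.00528). The call of *Snord73a* ended in 3 of the 12 fits without 1 mouse (adjusted p up to 0.0548) and in 4 against 4 mice (0.123). The other called member of 62 cytosolic ribosomal proteins was *Rps4l*, a copy of *Rps4x*, at 0.42 (limma adjusted p = 0.0338), and its call ended in 7 of the 12 fits without 1 mouse (adjusted p up to 0.0921) and in 4 against 4 mice (0.304). The called shares of the olfactory receptors, small nucleolar RNAs and cytosolic ribosomal proteins were 0.0985%, 1.96% and 3.23%, against 1.38% of all genes.

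Markers of the dissected region and of other cells were read beside these results. Of 16 genes that mark hypothalamic neurons, among them *Sim1* (0.10, SE 0.10) and *Otp* (0.14, SE 0.10) of the PVN, 0 were called and 0 had an unadjusted limma p under 0.05. Their median level per mouse ran from 6.61 to 6.84 in BPH/2J and from 6.52 to 6.87 in BPN/3J mice. Of 10 neuron, 10 astrocyte, 11 oligodendrocyte and 12 smooth muscle and pericyte markers 0 were called by limma, and 2, 2, 0 and 1 had an unadjusted p under 0.05. Among 11 ependymal, 12 meningeal, 12 choroid plexus and 11 cortical markers 0 were called and 0 had an unadjusted limma p under 0.05. The microglial adaptor *Tyrobp* was called higher (0.51, limma adjusted p = 0.00398) as 1 of 11 microglial markers, and the transporter *Slco1a4* of brain endothelium higher (0.62, limma adjusted p = 0.00931) as 1 of 12 endothelial markers. Of the microglial markers 8 were positive and 3 negative (median 0.09), and of the endothelial markers 5 were positive and 7 negative (median -0.01). The called shares were 9.09% and 8.33%, against 1.38% of all genes. *Chga*, chromogranin A, was called higher (0.50, limma adjusted p = 0.011) among 10 pituitary markers, of which 5 were positive and 5 negative. With *Oasl2*, given above, 2 of these 10 were called (20%, against 1.38% of all genes). The calls of *Tyrobp* and *Chga* ended in 4 against 4 mice (adjusted p = 0.0824 and 0.0675). *Tnnt1*, a troponin of thalamic neurons, was lower, from 8.01 to 8.28 (median 8.17) against 8.52 to 9.26 (median 9.15) (difference -0.90, limma adjusted p = 5.94e-05). It was the called member of 12 thalamic markers (8.33%, against 1.38% of all genes), of which 7 were positive. All 12 choroid plexus markers were negative with a median of -0.33, and 11 of 12 meningeal markers were negative with a median of -0.17. *Ttr*, transthyretin of the choroid plexus, ran from 7.51 to 13.37 (median 9.10) in BPH/2J and from 6.46 to 13.58 (median 11.06) in BPN/3J mice, a difference of -0.68 (SE 1.39). Per mouse the choroid plexus medians ran from -0.65 to 0.97 and from -0.70 to 1.27. The part of these cells in the results was not tested.

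Some called genes lay side by side on their chromosomes. Of 275 called genes with a place in the RefSeq annotation of GRCm38.p6, 34 (12.4%) had a called gene as a direct neighbour, against 2.54% of the genes that were not called. Neighbours formed 18 pairs, of which 13 had the same direction and 5 opposite directions. On chromosome 15 *Cthrc1* followed *Fzd6*, a Wnt receptor (0.56), and *Baalc* (0.60), all higher in BPH/2J mice. On chromosome 4 *Hdhd3* and *Alad* were both higher, and on chromosome 13 *Tmem267* and *Ccl28* both lower. On chromosome 9 the hydrolase genes *Abhd14a* (-0.97) and *Abhd14b* (-1.15) were both lower. On chromosome 7 *Dbp* lay beside *Car11*, a carbonic anhydrase-related gene (0.32). On chromosome 16 the receptor genes *Il10rb* (-0.51) and *Ifngr2* (-0.93) lay within 20 genes of *Dnajc28*, all lower. Opposite directions were seen for *Galt*, of galactose metabolism (-0.46), beside *Ccl19* on chromosome 4, and for *Aldh9a1* (-0.50) beside *Mgst3* on chromosome 1. By chromosome the share of called genes was largest on 18 (16 of 471, 3.4%) and 4 (31 of 1153, 2.69%) and smallest on X (2 of 739, 0.271%) and Y (0 of 9).

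The ‘trough’ mice, other animals of the same strains, gave the same sign in 266 of the 276 called genes (96.4%), against 50.3% of the genes that were not called. All 125 called genes with at least a 1.5-fold difference had the same sign in both. In 214 of the called genes (77.5%) the 3 ‘trough’ mice of one strain lay apart from the 3 of the other in the same direction, where 22.6% of all genes lay apart in either direction. For the strain difference in the ‘trough’ mice, 113 genes were called (0.567%). Of these, 84 were also called at ‘peak’ BP, which is 74.3% of the ‘trough’ calls and 30.4% of the ‘peak’ calls. Both differences were tested with a spread estimated from ‘peak’ and ‘trough’ arrays together, so their calls are not independent of each other. The median ratio of the ‘trough’ to the ‘peak’ difference was 0.79. Of the 10 called genes with opposite signs, none exceeded 0.18 in the ‘trough’ mice. Age and time of day differ together between these animals and the ‘peak’ mice.

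**Figure D5:**
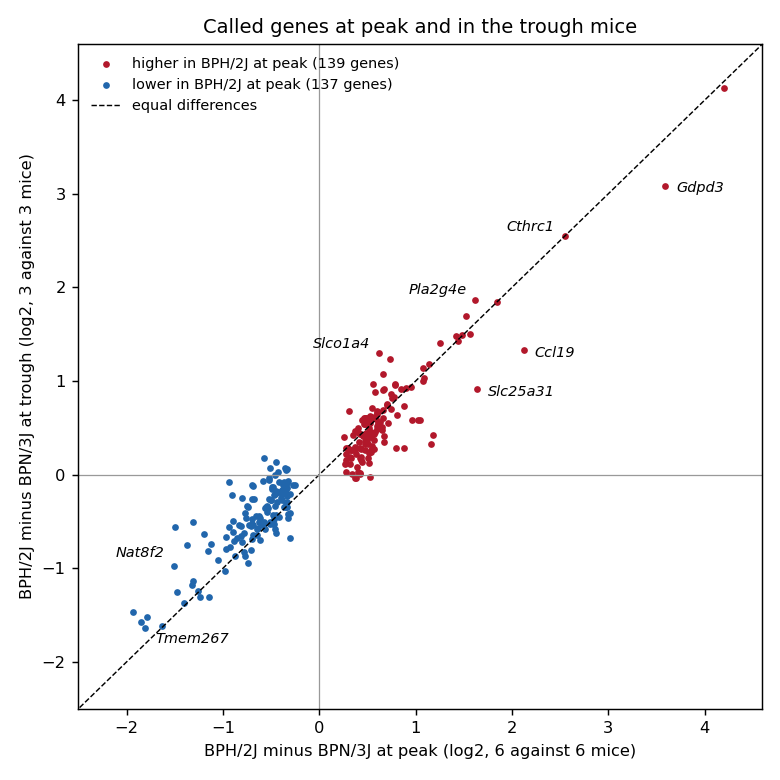
Each point is 1 of the 276 genes called at ‘peak’ BP, placed by its strain difference (BPH/2J minus BPN/3J, log2) in the 6 against 6 ‘peak’ mice (x axis) and in the 3 against 3 ‘trough’ mice (y axis), with the dashed line where both are equal. *Cthrc1* lies on the line, *Ccl19* and *Slc25a31* lie below it and *Slco1a4* above it.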

How the data were processed

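RNA of each mouse was hybridized to 1 array, and the authors deposited log2 signals of 34760 probesets, normalized over all arrays by RMA. The submitters’ processing notes name RMA and limma, and no version of either is given in the sources used here. Probesets were named from the platform annotation, in which 21640 have 1 gene symbol, 1321 several and 11799 none listed. No column belonged to another sample. Groups followed the sample titles.

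A model with 4 groups (strain by BP period) was fitted to all probesets of the 18 arrays in limma 3.58.1 (R 4.3.3), with Benjamini-Hochberg adjustment over all of them, and checked on simulated data. Exact permutation tests were 2-sided over 924 permutations. Nothing in the labels says that mice of a strain were independent litters or cages, so p-values measure the spread between these samples. Summaries and plots were made in Python 3.11.15 with matplotlib 3.10.9.

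The members and the 54 gene lists were chosen with earlier results of these data known. Genes were named if called, without predicted names, and among the 12 highest or 12 lowest, if among the 3 called members of a list with the smallest p, or if the study names them. Other fits varied the normalization, a filter at the 40th percentile of signal, array weights, the prior, the arrays and probesets used, a term or block for mouse numbers, and each mouse left out.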

Additional observations from a re-analysis of the deposited data

Results flagged for a closer look

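In 13 of 140 groups of 6 mice, over 70 named genes, 1 mouse stood far from the other 5 of its strain, and chance marks about 1 in 20 such groups. BPH/2J mouse 6 was low for *Avp* at 7.23 (next 8.74) and *Eif4a3* at 5.73 (next 6.64) and high for *Aldh1a2* at 7.57 (next 6.32). BPH/2J mouse 8 was low for *C4a* at 5.67 (next 6.01), *Kcnn2* at 8.48 (next 8.68) and *Phkg1* at 5.95 (next 6.29) and high for *Mrpl15* at 7.88 (next 7.85).

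BPN/3J mouse 11 was low for *Hcrt* at 7.71 (next 9.07) and high for *Rian* at 9.45 (next 7.54). BPN/3J mouse 10 was low for *Tnnt1* at 8.52 (next 9.10), BPN/3J mouse 5 high for *Gas5* at 11.73 (next 11.46), BPH/2J mouse 4 low for *B2m* at 9.52 (next 9.73) and BPH/2J mouse 9 low for *Sycp3* at 5.76 (next 6.71). The cause of these values was not tested.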

How the results depend on the processing

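Leaving out each mouse in turn gave 214 to 304 called genes, 102 to 151 of them higher and 109 to 153 lower, and 115 to 133 with at least 1.5-fold. Leaving out a ‘trough’ mouse left 259 to 267 called genes with the same sign there. Array weights raised the genes called higher to 210. Genes called lower were 88 in the 4 against 4 lower-numbered mice, a fit with fewer samples and no ‘trough’ arrays, and 87 with median centring. *Slc8a1*, at -0.02 and not called, turned to 0.02 in the lower-numbered mice, to 0.02 with median centring, to 0.00 with quantile normalization and ran from -0.07 to 0.01 in the fits without 1 mouse. Among the 70 named genes *Aldh1a2*, *Avp*, *Hcrt*, *Oxt*, *Slc8a1*, *Trh* and *Zbtb16* had no call to lose. Of the others 17 lost their call in the lower-numbered mice, 14 with the 12 ‘peak’ arrays alone and 9 with median centring. The cause was not tested.

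The strains share mouse numbers 5 to 8, but the labels do not say that a number marks a pair, and the residuals of same-numbered mice had correlations of 0.144, 0.123, -0.0812 and -0.296, so the mice were not taken as paired. With the number as a replicate block in these 4 against 4 mice, 39 genes were called, 20 higher and 19 lower, all 39 at least 1.5-fold and 38 of them among the 276, and 40 named genes lost their call.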
